A study of Mus musculus with 16 samples.

Results

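The effect of evacetrapib on gene expression was examined in the brain of CETPtg mice alone, across genes. The 8 CETPtg mice were taken by their genotype and treatment labels out of 16 mice in all, 4 given evacetrapib (mice A, B, C and D) and 4 given vehicle (mice S1, S2, S3 and S4). All 8 were female, on a C57BL/6J background, and heterozygous for a transgene of human CETP, the plasma protein that exchanges cholesteryl esters and triglycerides between lipoproteins and that mice lack. From 11 weeks of age they were fed a diet with 1% cholesterol, and for 11 weeks they were given the CETP inhibitor evacetrapib at 30 mg/kg per day or the Kolliphor EL and glucose vehicle by intraperitoneal injection, until tissue was taken 4 h after the last one. RNA came from bulk brain, so a higher transcript level and a larger share of the cells that carry it cannot be told apart, and neither can a difference in the piece of brain that entered the extraction. No CETPtg mouse carried the mutant human APP transgene of the other 8 mice, APPtg/CETPtg mice on the same diet and treatments, which entered the fit and serve here as a second comparison.

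CETP acts in plasma, where its inhibition raises high-density lipoprotein cholesterol and lowers the transfer of cholesteryl esters to lower-density particles. The study adds that CETP may also occur in the human central nervous system and that its inhibitors reach the brain. The brain makes nearly all of its own cholesterol behind the blood-brain barrier. In the vessel wall, endothelial cells meet plasma lipoproteins, and pericytes and smooth muscle cells lie around them. Brain tissue also keeps time. The transcription factors CLOCK or NPAS2 and BMAL1 bind E-box elements and drive the Per, Cry and Nr1d genes. The products of these genes then repress those factors, so that activation and repression alternate over the day.

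Between 28626139 and 46800787 counts on genes were obtained per CETPtg mouse, with a median of 36574277 in the evacetrapib group and 35195745.5 in the vehicle group. Within a group, mice varied beyond what counting alone gives: over the 12 pairs, the chi-square of the counts was between 4.59 and 17.1 times its degrees of freedom. Labels place the libraries of mice A and B in column 11 of an index plate and the other 6 in column 12, in rows that do not repeat between the treatments, so plate row and treatment cannot be told apart. Expression is given as CPM, counts scaled to a common library size by TMM, in the usual unit of that name. The tissue carried the markers of brain throughout, with summed CPM of 12 neuron markers between 9723 and 10610.0 with evacetrapib and between 9624 and 10001 with vehicle.

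No gene passed the threshold in CETPtg mice. Of 18609 genes in the quasi-likelihood test of edgeR, 0 had an adjusted p of at most 0.05 together with the study's minimum fold change, which is 0% of those tested, and the smallest adjusted p was 0.276. An unadjusted p below 0.05 was reached by 1079 genes, 570 higher with evacetrapib (3.06% of genes tested) and 509 lower (2.74%). The values of the groups did not overlap, with every evacetrapib mouse on the same side of every vehicle mouse, in 391 genes that were higher (2.10%) and 339 that were lower (1.82%). Changes in abundant transcripts were small. Among the 10268 genes with at least 10 CPM, the log2 fold changes from the 5th to the 95th percentile ran from -0.14 to 0.13, and the 95% interval of a typical gene reached 0.13 to either side of its estimate on the log2 scale. That reach was 0.69 in genes below 1 CPM, where larger differences could go undetected.

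When the 8 CETPtg mice were instead fitted alone with the Wald test of DESeq2, 20 of 18128 genes (0.110%) passed the same thresholds. Of these 20, 12 were upregulated and 8 downregulated, with adjusted p between 0.0188 and 0.0486. DESeq2 gave no adjusted p to 7029 of the 18128 genes, so its adjustment ran over fewer genes than that of edgeR. The upregulated genes were Npas2, Galnt9, Acta2, Adgrl4, Rims4, Efhd2, Myh11, Khdrbs3, Dpysl2, Fmnl1, Cck and Shank1. They include a clock activator, 2 genes of smooth muscle, an endothelial receptor and several genes of neurons, among them the synaptic scaffold Shank1 and the neuropeptide cholecystokinin (Cck). The downregulated genes were Etnppl, Per2, Syt10, Dgki, Pcdhgb6, Bhlhe41, Fam214a and Pcdhga6, of which Per2 and Bhlhe41 are clock repressors, Etnppl is an astrocyte enzyme of phosphoethanolamine breakdown, and the pair of protocadherins belongs to a cluster whose transcripts share exons, so reads may be split between its members. In 19 of the 20 the groups did not overlap, Syt10 being the exception, and all had an unadjusted p of 0.0430 or less in edgeR. The 20 were chosen on these same counts, so neither value is separate support. DESeq2 fitted to all 16 mice called 0 genes in the same contrast.

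**Figure D1:**
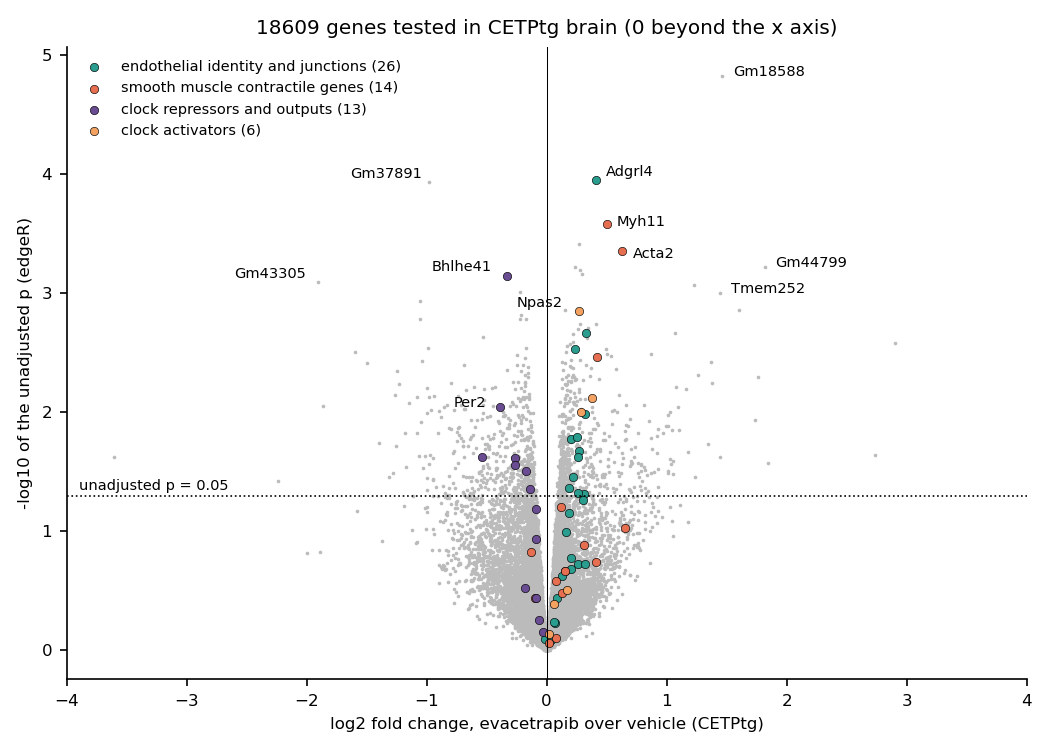
Each point is a gene tested in CETPtg brain, with the log2 fold change of evacetrapib over vehicle on the x axis and the -log10 of the unadjusted p of edgeR on the y axis; coloured points are members of 4 gene lists, and the dotted line marks the unadjusted threshold. The endothelial and smooth muscle genes lie mostly to the right of 0, the 13 clock repressors and output genes to the left, and Gm18588 is the highest point.

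The genes with the smallest p were a mixture of vascular, neuronal and poorly annotated transcripts. Among the 12 higher and the 12 lower genes with the smallest p, the groups did not overlap in any, and 4 of each 12 had a mean below 1 CPM. These genes were chosen on the same counts, so the lack of overlap is no separate support. Gm18588 (ENSMUSG00000093402, GRCm38 chromosome 3, 68902267 to 68902758, a processed pseudogene, whose reads may belong to its parent gene) had 0.618, 0.779, 0.690 and 0.681 CPM in mice A, B, C and D and 0.210, 0.188, 0.368 and 0.211 CPM in S1, S2, S3 and S4. It was higher with evacetrapib by a log2 fold change of 1.47 (standard error 0.25, edgeR adjusted p = 0.276), but fell outside the genes for which DESeq2 gave an adjusted p. The APPtg/CETPtg mice differed by -0.32 on the log2 scale, and the test between genotypes gave an unadjusted p of 0.000151. Gm37891 (chromosome 2, 14966198 to 14967523, an unclassified transcript) was the first among the lower genes, with a log2 fold change of -0.98. Of the annotated genes among those 24, the higher ones were Adgrl4, Myh11, Fmnl1, Acta2, Rims4, the efflux transporter Abcc4, the stress kinase Mapk11, Tmem252 and Snx3, and the lower ones Bhlhe41, Fam214a, the sodium-proton exchanger Slc9a7, Ankrd12, the folate enzyme Mthfd1, the DNA repair gene Fanca and the ubiquitin ligase gene Ubr3.

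Endothelial genes were higher with evacetrapib almost throughout. Of 26 genes of endothelial identity and junctions, 25 were higher, and the median log2 fold change was 0.21 against -0.002 over all genes tested. An unadjusted p below 0.05 was reached by 12 of them, all higher, against 3.06% of all genes, and the groups did not overlap in 5, against 2.10%. The study itself named 4 of the 26 from these mice together with the APPtg/CETPtg mice. Among the other 22, 21 were higher, the median was 0.20, and 8 reached an unadjusted p below 0.05. None passed the adjusted threshold in edgeR, and the smallest adjusted p on the list was 0.715. With 1 mouse left out in turn, the number of the 26 at an unadjusted p below 0.05 was between 6 (without S1) and 14 (without S4), and it was 5 among the libraries of plate column 12, where 23 were higher.

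Adgrl4 (ENSMUSG00000039167, chromosome 3, 151437887 to 151545086), an adhesion G protein-coupled receptor of endothelial cells, was the endothelial gene with the smallest p. It had 23.9, 18.3, 20.4 and 20.6 CPM in mice A to D and 15.2, 14.3, 17.4 and 15.6 CPM in S1 to S4. The lowest evacetrapib mouse, B, lay above the highest vehicle mouse, S3. The log2 fold change was 0.41 (95% interval 0.24 to 0.59), a 33.3% higher level, with an adjusted p of 0.715 in edgeR and 0.0188 in DESeq2 fitted to the CETPtg mice alone. Without any 1 of the 8 mice, it stayed between 0.34 and 0.48.

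Pecam1, the adhesion molecule of endothelial contacts that is also called CD31, had 24.5, 21.9, 22.2 and 20.0 CPM with evacetrapib and 17.2, 16.4, 15.9 and 21.1 CPM with vehicle. The vehicle mouse S4, at 21.1, lay above evacetrapib mouse D, so the groups overlapped, and the log2 fold change was 0.33 (95% interval 0.14 to 0.53). Podxl, a sialomucin of the luminal surface, showed the same arrangement at 47.0, 43.5, 45.7 and 45.6 CPM against 36.0, 36.3, 36.6 and 45.0 CPM, for a log2 fold change of 0.24. Cldn5, the main claudin of the blood-brain barrier's tight junctions, had 32.6, 29.2, 27.1 and 35.2 CPM against 22.3, 24.9, 24.3 and 28.9 CPM, for a log2 fold change of 0.31 whose interval began at 0.00. S4 was the highest vehicle mouse for all of these genes. Summed over the endothelial list, S4 had 564 CPM, within the range of the evacetrapib mice (547 to 621), whereas S1, S2 and S3 had 501, 484 and 498 CPM.

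Egfl7, a secreted endothelial factor, was higher in every evacetrapib mouse (27.1 to 30.5 CPM) than in every vehicle mouse (24.7 to 25.1 CPM), with a log2 fold change of 0.20. Mmrn2, an extracellular matrix glycoprotein of vessels, did so as well, at 5.74 to 6.75 CPM against 4.55 to 5.55 CPM, and its log2 fold change was 0.32. Cdh5, the cadherin of endothelial junctions, differed by 0.27 on the log2 scale, Nos3, the endothelial nitric oxide synthase, by 0.26, and Eng, a co-receptor for TGF-beta, by 0.22. Of the junctional genes that other cells also express, Tjp1 had a log2 fold change of -0.01 (95% interval -0.09 to 0.07). Ocln had 0.15 (-0.09 to 0.39), an interval that holds both 0 and the endothelial list's median of 0.21. Vwf, stored in endothelial granules, had 0.06 (-0.17 to 0.30).

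Signalling genes of vessel growth were mixed. Of 24 members of the VEGF, Notch and angiopoietin pathways, 15 were higher and the median log2 fold change was 0.03. An unadjusted p below 0.05 was reached by 3, all higher, against 3.06% of all genes. Without mouse A only Flt1 of these was left at that threshold, joined by Angpt1 on the lower side, and without S4 there were 5 higher and 2 lower. The 3 were the VEGF receptors Flt1 and Kdr, which the study named, and the peptide ligand Apln. Flt1 had 84.9, 69.6, 75.3 and 69.5 CPM with evacetrapib and 60.6, 56.9, 58.3 and 71.5 CPM with vehicle, a log2 fold change of 0.28 (95% interval 0.10 to 0.45). Kdr had 16.8, 12.2, 15.2 and 12.5 CPM against 10.5, 10.7, 10.7 and 13.0 CPM, a log2 fold change of 0.34 (0.07 to 0.62). In both genes S4 again lay among the evacetrapib mice. The ligands Vegfa (log2 fold change 0.05, interval -0.14 to 0.24) and Vegfb (0.01, -0.09 to 0.11) did not reach the unadjusted threshold. Angiopoietins went opposite ways without reaching the unadjusted threshold, Angpt1 at -0.23 (-0.47 to 0.01) and Angpt2 at 0.49 (-0.01 to 0.99).

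Barrier transporters as a group were level, with 9 of 18 higher and a median log2 fold change of -0.00. Abcc4, an efflux pump for organic anions, was the exception on the higher side, at 15.7, 14.8, 13.9 and 14.8 CPM against 11.1, 11.9, 12.2 and 13.4 CPM, with a log2 fold change of 0.28 (95% interval 0.14 to 0.43, edgeR adjusted p = 0.837). Every evacetrapib mouse lay above every vehicle mouse. Ager, the receptor for advanced glycation end products, was lower, at 0.398 to 0.539 CPM against 0.657 to 0.888 CPM, with a log2 fold change of -0.69 at levels below 1 CPM. Their log2 fold changes were -0.02 and 0.21 in APPtg/CETPtg mice, with an unadjusted p of 0.00713 and 0.0115 for the test between genotypes. The glucose carrier Slc2a1 (0.10) and the drug efflux pump Abcb1a (0.12) did not reach the unadjusted threshold.

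In mural cells, contractile genes of smooth muscle were mostly higher. Of 14 tested, 12 were higher (median log2 fold change 0.14), and the 3 with an unadjusted p below 0.05, against 3.06% of all genes, were Acta2, Myh11 and Tagln, all named by the study. Among the other 11, 9 were higher, the median was 0.12 and 0 reached that threshold, but without vehicle mouse S4 the 4 genes Cnn1, Des, Myl9 and Ramp1 did. Summed over the list, S4 had 352 CPM, against 314 to 332 CPM in the other vehicle mice and 354 to 362 CPM with evacetrapib. Acta2 (ENSMUSG00000035783, chromosome 19, 34241090 to 34255590), smooth muscle actin, had 8.84, 11.0, 7.86 and 12.7 CPM in mice A to D and 5.91, 6.43, 6.10 and 7.61 CPM in S1 to S4. Its groups touched without overlapping, C at 7.86 being next to S4 at 7.61, and the log2 fold change was 0.63 (95% interval 0.32 to 0.94, adjusted p of 0.837 in edgeR and 0.0188 in DESeq2 on the CETPtg mice alone).

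Myh11, the smooth muscle myosin heavy chain, had 9.95, 13.0, 10.3 and 11.6 CPM against 8.20, 6.75, 7.49 and 9.27 CPM, a log2 fold change of 0.50 (95% interval 0.27 to 0.74). Tagln, the actin-binding protein transgelin, had 5.62, 8.24, 6.37 and 7.07 CPM against 4.95, 5.27, 4.81 and 5.39 CPM, a log2 fold change of 0.42 (0.16 to 0.68). In all of these genes every evacetrapib mouse exceeded every vehicle mouse. The largest estimate on the list was that of Cnn1, the actin-binding protein calponin, at a level below 1 CPM that rests on 5 to 21 counts a mouse. It had 0.353, 0.630, 0.345 and 0.369 CPM against 0.458 CPM in S4, above 3 of the evacetrapib mice, and at most 0.263 CPM in S1, S2 and S3, and its log2 fold change of 0.65 had a 95% interval of -0.12 to 1.43. Other partners in the contractile apparatus did not reach the unadjusted threshold either: Myl9 had a log2 fold change of 0.15 (-0.10 to 0.40), Mylk 0.13 (-0.15 to 0.42), Tpm2 0.02 (-0.20 to 0.24) and Smtn -0.13 (-0.32 to 0.05).

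Pericyte and fibroblast genes gave few differences. Of 14 pericyte markers, 10 were higher (median log2 fold change 0.07). Only Rgs5 (0.18, 95% interval 0.02 to 0.34) reached an unadjusted p below 0.05, against 3.06% of all genes on the higher side. Pdgfrb had 0.07 (-0.10 to 0.23). Rgs5 kept that threshold in 3 of the 8 fits that leave out 1 mouse. The pericyte median was 0.12 without mouse A and 0.16 in plate column 12, where Rgs5, Notch3 and Cald1 reached the threshold. Of 16 meningeal and perivascular fibroblast genes, 7 were higher with a median of -0.01, and 0 reached that threshold. Blood cell genes, which would track blood left in the tissue of mice that were not perfused, summed to 293 CPM in mouse A and to between 96.7 and 157 CPM in B, C and D, against 96.9 to 163 CPM with vehicle. Mouse A also had the highest endothelial sum, and its part in the endothelial values was not tested beyond leaving it out, after which 24 of 26 endothelial genes were still higher, with a median of 0.18 and 7 at an unadjusted p below 0.05.

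**Figure D2:**
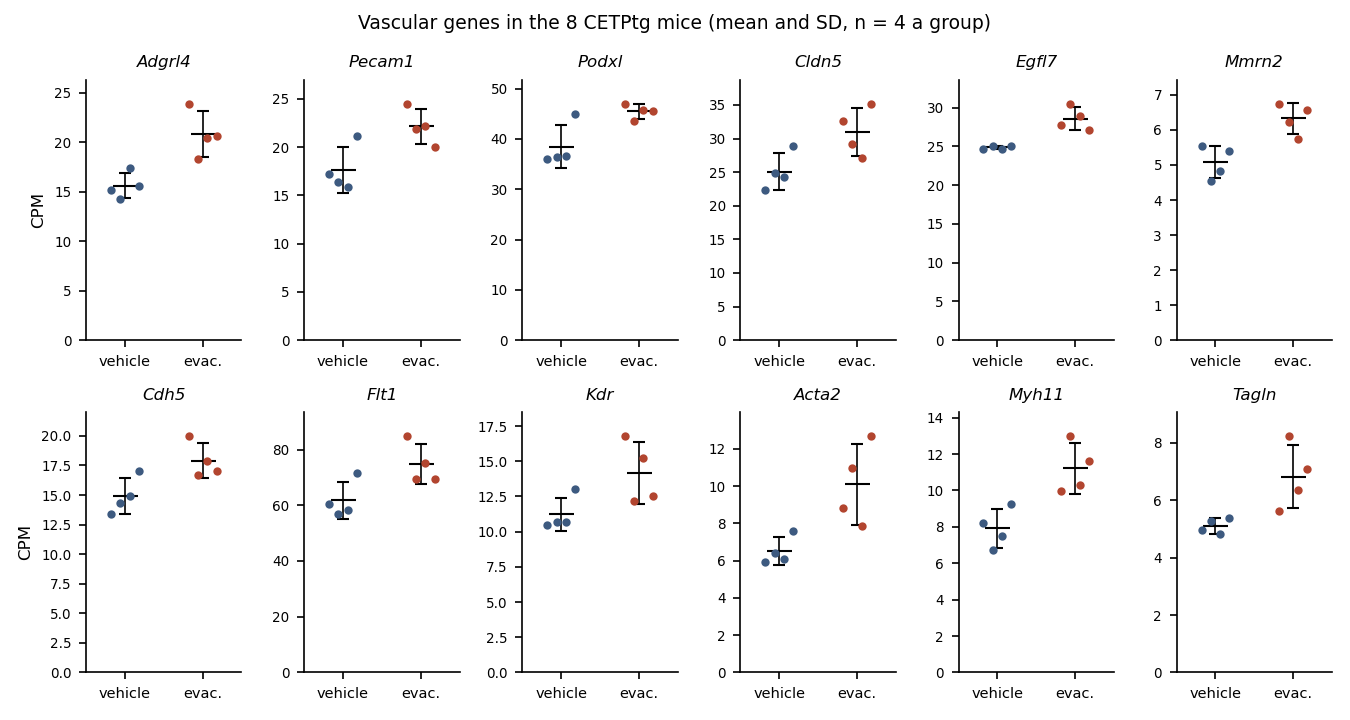
CPM of 12 vascular genes in each CETPtg mouse (y axis, from 0) by treatment (x axis), with the mean and SD of 4 mice a group. Evacetrapib mice lie above all vehicle mice for Adgrl4, Egfl7, Mmrn2, Acta2, Myh11 and Tagln, and 1 vehicle mouse lies among them for Pecam1, Podxl, Cldn5, Cdh5, Flt1 and Kdr.

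Clock repressors and the genes listed as clock activators differed in opposite directions. All 13 repressors and output genes, whose promoters answer to E-boxes or D-boxes, were lower with evacetrapib (median log2 fold change -0.17), and 7 had an unadjusted p below 0.05 against 2.74% of all genes: Bhlhe41, Per2, Cry1, Ciart, Dbp, Per3 and Nr1d2. The groups did not overlap in 5 of the 13, against 1.82% of all genes. Only Per2 among them had been named by the study. All 6 genes listed as activators were higher (median 0.22). Of these, 3 reached an unadjusted p below 0.05, against 3.06% of all genes: Npas2, Rorb and Arntl. The others, Clock and Rora among them, did not. Leaving out 1 mouse gave 4 (without A) to 6 activators higher, and 2 or 3 at that threshold. The smallest adjusted p in edgeR was 0.837 for both lists. Leaving out 1 mouse gave between 3 (without D or S2) and 9 (without C) repressors at an unadjusted p below 0.05, with 11 to 13 of the 13 lower, and plate column 12 alone gave 1, with all 13 lower. Tissue was collected at a fixed interval after the last injection, but the clock time of each mouse was not given in the sources used here, and its part in these values was not tested.

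The promoters of Bhlhe41, Ciart and Cry1 are shown because these 3 were lower at an unadjusted p below 0.05 and carry the E-box hexamer CACGTG, which reads the same on both strands, in the RefSeq window from 250 bases before to 50 bases after the start of transcription (GRCm38.p6, minus strand for each, E-boxes in capitals). They lie at chr6:145865371-145865670, chr3:95882179-95882478 and chr10:85185005-85185304.
Bhlhe41: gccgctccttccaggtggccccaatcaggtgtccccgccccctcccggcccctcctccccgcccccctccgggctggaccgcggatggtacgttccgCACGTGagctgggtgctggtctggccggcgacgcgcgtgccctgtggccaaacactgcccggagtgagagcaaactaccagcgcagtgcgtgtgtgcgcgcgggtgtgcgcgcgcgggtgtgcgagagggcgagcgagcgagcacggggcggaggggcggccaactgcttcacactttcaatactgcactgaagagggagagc
Ciart: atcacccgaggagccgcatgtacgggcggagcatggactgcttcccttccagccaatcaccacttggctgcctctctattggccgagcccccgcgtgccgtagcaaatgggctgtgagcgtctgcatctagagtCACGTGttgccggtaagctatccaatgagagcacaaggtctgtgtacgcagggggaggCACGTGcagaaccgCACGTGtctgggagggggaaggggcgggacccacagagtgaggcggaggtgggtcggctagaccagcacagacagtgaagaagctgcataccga
Cry1: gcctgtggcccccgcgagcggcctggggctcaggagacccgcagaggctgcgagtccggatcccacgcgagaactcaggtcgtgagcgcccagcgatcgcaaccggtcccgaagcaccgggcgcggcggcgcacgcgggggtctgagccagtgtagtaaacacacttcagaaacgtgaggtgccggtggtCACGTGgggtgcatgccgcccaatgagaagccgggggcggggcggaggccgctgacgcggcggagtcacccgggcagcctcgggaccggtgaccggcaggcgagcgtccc
The E-box begins 153 bases before the start in Bhlhe41 and 60 bases before it in Cry1, and Ciart holds 3, at 116, 58 and 44 bases. Of the 13 repressor and output genes, 11 had an entry, and Per2 was not among them. Of the 11, 5 held the hexamer (Bhlhe41, Ciart, Cry1, Per1 and Tef), as did 8.09% of 27025 genes with an entry. Per1 and Tef, which also hold it, had log2 fold changes of -0.18 and -0.09 without reaching the unadjusted threshold, and 0 of the 6 activator genes held it. The list was drawn up of genes that answer to E-boxes or D-boxes, so its share describes that choice and not the treatment. A match describes the letters in this window alone.

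Among the repressors, Bhlhe41 (ENSMUSG00000030256, chromosome 6, 145858243 to 145865558), which encodes the E-box-binding repressor DEC2, had 43.7, 52.5, 59.9 and 50.5 CPM in mice A to D and 67.6, 62.2, 67.3 and 63.0 CPM in S1 to S4. All evacetrapib mice lay below all vehicle mice, with a log2 fold change of -0.33 (95% interval -0.51 to -0.16, adjusted p of 0.837 in edgeR and 0.0388 in DESeq2 on the CETPtg mice alone). Its paralog Bhlhe40 (DEC1) had 114 to 128 CPM against 119 to 145 CPM, overlapping groups and a log2 fold change of -0.09 (-0.28 to 0.11).

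Per2, a core repressor that pairs with the cryptochromes, had 38.5, 41.6, 48.9 and 43.1 CPM with evacetrapib and 50.3, 55.6, 66.3 and 52.7 CPM with vehicle. The groups did not overlap, and the log2 fold change was -0.39 (95% interval -0.67 to -0.11). Cry1 had 22.5, 19.6, 21.9 and 22.7 CPM against 24.9, 24.8, 28.4 and 25.4 CPM and a log2 fold change of -0.26, again without overlap. Per3 was likewise separated, at 54.9 to 61.6 CPM against 62.6 to 66.7 CPM, with a log2 fold change of -0.17. Per1 (-0.18, -0.53 to 0.17) and Cry2 (-0.09, -0.19 to 0.01) did not reach the unadjusted threshold.

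The output genes varied more among the evacetrapib mice. Ciart, a repressor also known as Chrono, had 16.5, 21.3, 24.1 and 11.5 CPM in A to D and 25.1 to 30.1 CPM with vehicle, for a log2 fold change of -0.54 (standard error 0.22). Dbp, a transcription factor that binds D-box elements, had 108, 139, 159 and 112 CPM against 152, 159.6, 152 and 156 CPM, for a log2 fold change of -0.26. In both, mice A and D were low and mouse C was close to the vehicle mice. Nr1d1, the repressor REV-ERB-alpha, split the same way, with 142, 204, 189.9 and 146 CPM against 172, 185, 179 and 176 CPM, and the interval of its log2 fold change of -0.06 included 0 (-0.29 to 0.16). Nr1d2 differed by -0.14 on the log2 scale, and Tef (-0.09) and Hlf (-0.03) did not reach the unadjusted threshold.

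On the activator side, Npas2 (ENSMUSG00000026077, chromosome 1, 39193731 to 39363236), the forebrain partner of BMAL1, had 64.5, 59.1, 57.1 and 54.8 CPM with evacetrapib and 49.8, 49.0, 47.5 and 49.3 CPM with vehicle. The vehicle mice lay close together, below every evacetrapib mouse, and the log2 fold change was 0.27 (95% interval 0.12 to 0.42, DESeq2 adjusted p = 0.0188 on the CETPtg mice alone). Arntl, which encodes BMAL1, had 32.0, 24.1, 26.0 and 32.8 CPM against 21.7 to 26.1 CPM, so that S4 lay above B and C, and its log2 fold change was 0.29 (0.08 to 0.51). Mice A and D, lowest for Dbp and Ciart, were highest for Arntl. Clock had a log2 fold change of 0.02 (-0.11 to 0.15) and Rora 0.06 (-0.09 to 0.20). Rorb, a nuclear receptor of this list that is also a marker of cortical layer neurons, had 31.2 CPM in mouse A, 19.7 to 24.3 CPM in the others and 17.9 to 19.3 CPM with vehicle, a log2 fold change of 0.38 that was 0.24 without mouse A.

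**Figure D3:**
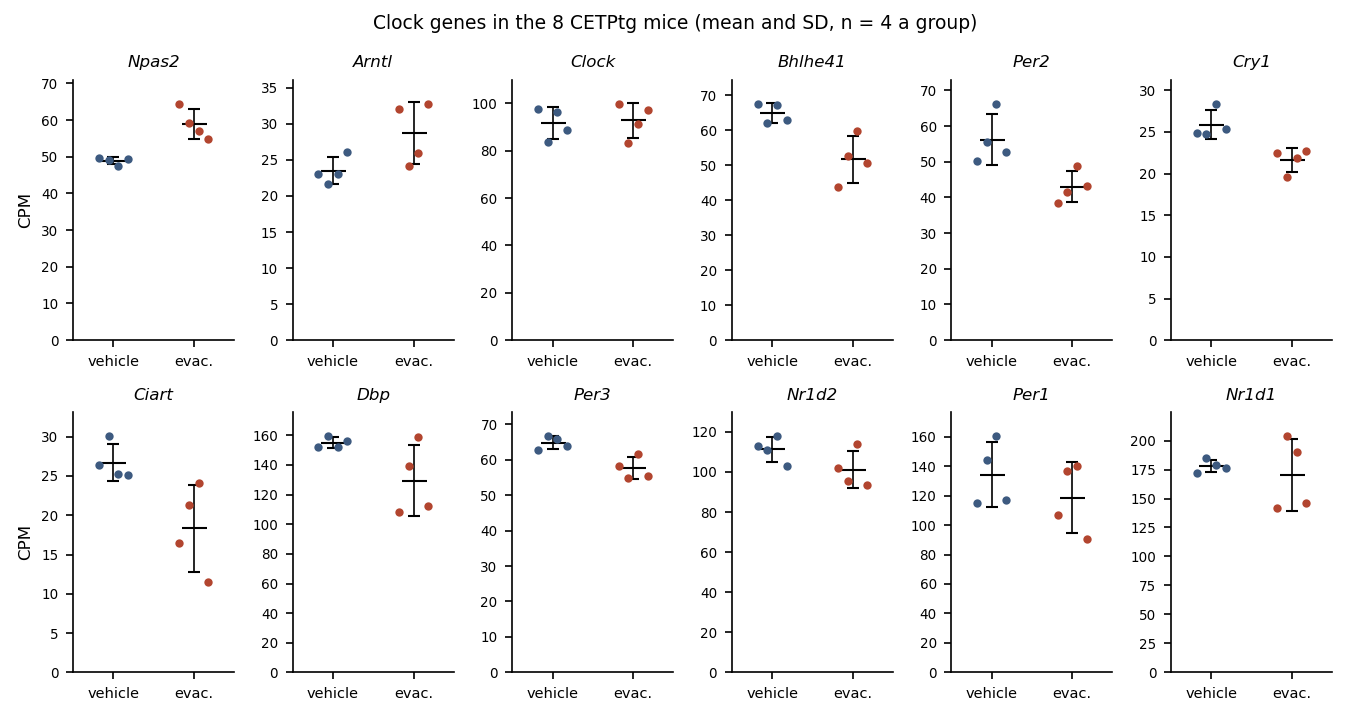
CPM of 12 clock genes in each CETPtg mouse (y axis, from 0) by treatment (x axis), with the mean and SD of 4 mice a group. The mean of Npas2 and Arntl is higher with evacetrapib, that of Bhlhe41, Per2, Cry1, Ciart and Per3 are lower without overlap, and the groups overlap for Clock, Dbp, Nr1d2, Per1 and Nr1d1.

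Neuronal genes of the cerebral cortex were higher with evacetrapib. All 7 cortical neuron markers tested were higher (median log2 fold change 0.24). An unadjusted p below 0.05 was reached by 2 of them, against 3.06% of all genes. These were Rorb and Fezf2 (0.26, 95% interval 0.05 to 0.47), which specifies deep-layer projection neurons. Summed over the list, mice A, B, C and D had 570.0, 490.4, 466 and 451 CPM and S1 to S4 459, 414, 405 and 468 CPM. Mouse A stood highest, C and D overlapped the vehicle mice, and without A the median was 0.15 with 0 genes at an unadjusted p below 0.05. In plate column 12 the median was 0.12, with 6 of 7 higher and 0 at that threshold. In APPtg/CETPtg mice 6 of the 7 were lower, with a median of -0.08. The test between genotypes gave an unadjusted p below 0.05 for 2 of the 7, against 6.83% of all genes. General neuron markers were level, with 6 of 12 higher and a median of 0.01, and markers of hippocampus (4 of 7 higher, median 0.04), striatum (3 of 10, -0.05) and thalamus (4 of 8, -0.01) showed no common direction.

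Several neuronal genes outside that list were among the 20 called by DESeq2 on the CETPtg mice alone. Galnt9, a glycosyltransferase of the brain (chromosome 5, 110544355 to 110621380), had 108, 85.3, 79.8 and 80.9 CPM with evacetrapib and 67.1, 60.6, 73.8 and 65.2 CPM with vehicle, a log2 fold change of 0.41 (95% interval 0.17 to 0.65). Cck had 239, 220.1, 216 and 209 CPM against 198, 186, 179 and 197 CPM, a log2 fold change of 0.22 (0.01 to 0.43). Both genes separated the groups, with mouse A highest. On the log2 scale the differences in APPtg/CETPtg mice were 0.00 and -0.13, and the difference between genotypes had an unadjusted p of 0.0202 for Galnt9 and 0.0230 for Cck. Rims4, a regulator of synaptic vesicle release, had 106, 105, 113 and 104 CPM against 87.7, 88.1, 97.5 and 91.1 CPM, a log2 fold change of 0.23 (0.11 to 0.35), and 0.17 in APPtg/CETPtg mice. Shank1 had 634 to 729 CPM against 565 to 621 CPM, a log2 fold change of 0.21 (0.07 to 0.35), and 0.27 in APPtg/CETPtg mice.

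Transcripts of regions that border the cerebrum varied from mouse to mouse in both groups. Hypothalamic neuropeptides summed to 163 CPM in S3 and to between 15.3 and 44.9 CPM in the other 7 mice. Avp, the vasopressin gene, had 40.7 CPM in S3 and at most 4.55 CPM elsewhere, and its log2 fold change of -3.60 became -1.07 without S3. Choroid plexus genes were highest in S3 (456 CPM) and mouse B (384 CPM) against 214 to 272 CPM in the rest. Olfactory bulb genes summed to 85.1, 95.5, 63.5 and 215 CPM in A to D and to 107, 197, 209.8 and 205 CPM in S1 to S4. All 8 olfactory bulb genes were lower, with a median log2 fold change of -0.69, yet 0 had an unadjusted p below 0.05. Without mouse D, whose sum lay among the vehicle mice, the median was -1.32 and 3 genes reached that threshold, whereas without C the median was -0.44 and in plate column 12 it was -0.36. The part of these differences in the neuronal and clock values was not tested beyond leaving out each mouse.

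**Figure D4:**
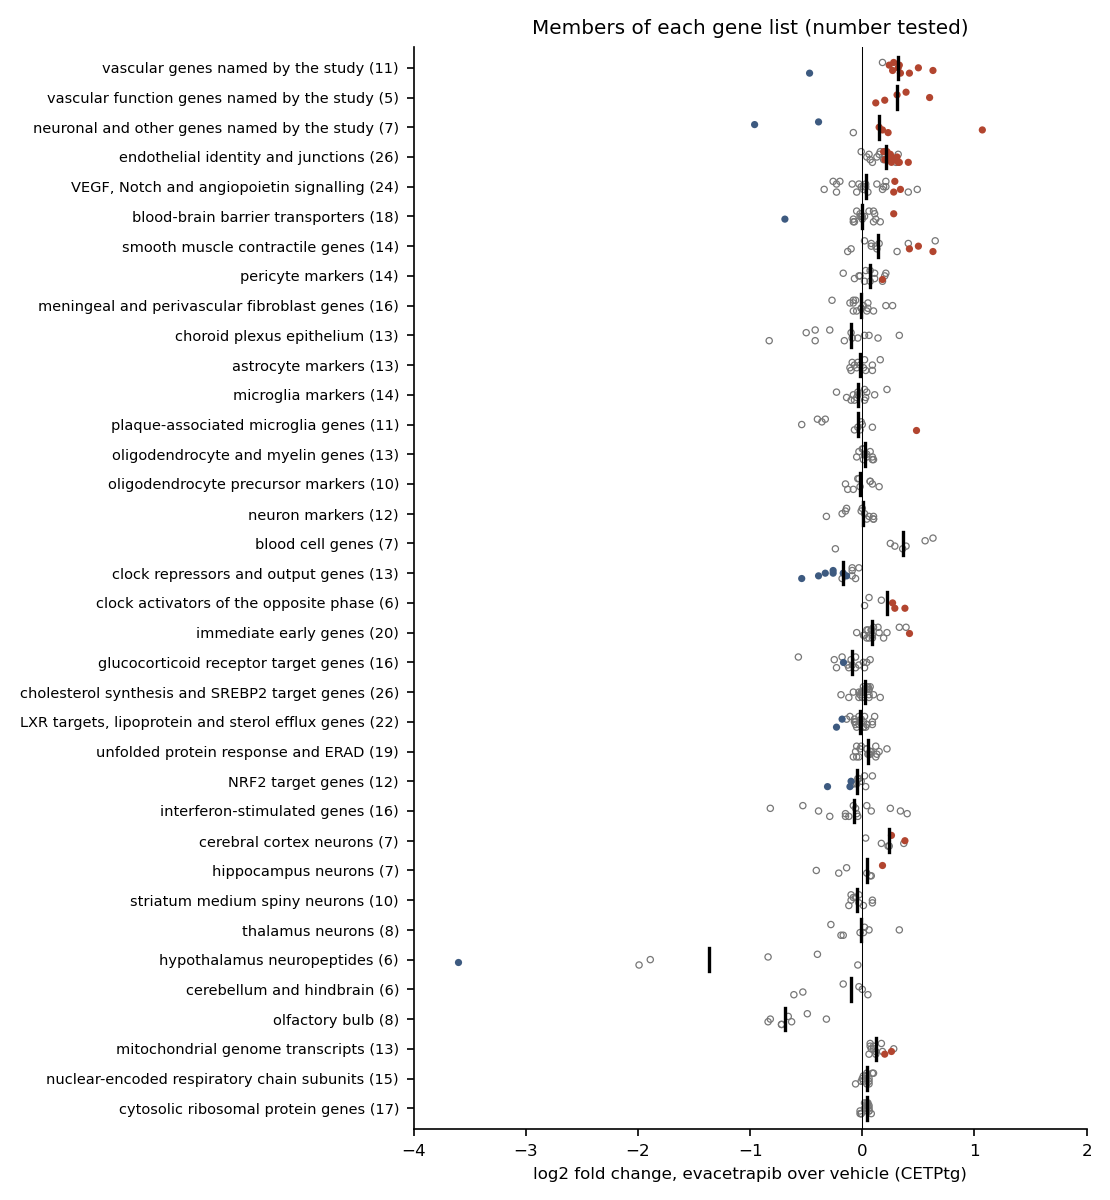
The log2 fold change of evacetrapib over vehicle in CETPtg mice (x axis) for each gene of 36 lists (y axis, number of genes tested in parentheses); filled points have an unadjusted p below 0.05, red higher and blue lower, open points do not, and the bar is the median of the list. The endothelial list is shifted to the right at a median of 0.21, the clock repressors to the left at -0.17, and cholesterol synthesis is centred at 0.02.

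Genes of sterol metabolism differed little. Of 26 genes of cholesterol synthesis and SREBP2 control, 17 were higher, the median log2 fold change was 0.02, and 0 reached an unadjusted p below 0.05 in either direction. Sqle, the squalene epoxidase, had 59.8, 64.3, 56.9 and 54.2 CPM with evacetrapib and 59.4, 53.7, 62.2 and 52.6 CPM with vehicle, so the groups overlapped, and its log2 fold change of 0.04 had a 95% interval of -0.14 to 0.23. Srebf2, the transcription factor that drives the pathway, had 0.05 (-0.07 to 0.17). Differences within these intervals could not be detected with 4 mice a group.

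Among 22 LXR targets, lipoprotein genes and sterol efflux genes, 10 were higher and the median was -0.02. Abca1, the transporter that loads cholesterol onto apolipoproteins, was lower, at 48.6, 49.2, 54.3 and 54.0 CPM against 57.2, 63.2, 64.1 and 57.9 CPM, without overlap and with a log2 fold change of -0.23 (95% interval -0.43 to -0.04, edgeR adjusted p = 0.837). In APPtg/CETPtg mice it had 0.21, and the difference between genotypes had an unadjusted p of 0.00437. Srebf1 differed by -0.18 on the log2 scale (-0.35 to -0.01) with overlapping groups. These were the 2 of the 22 that were lower at an unadjusted p below 0.05, against 2.74% of all genes, and 0 were left without A, B, S2 or S3. The partner transporter Abcg1 (-0.06), the brain's main apolipoprotein gene Apoe (-0.07, -0.21 to 0.06) and the cholesterol 24-hydroxylase Cyp46a1 (0.01, -0.09 to 0.11) did not reach the unadjusted threshold.

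Glial and stress genes gave few differences. Astrocyte markers (6 of 13 higher, median -0.02), microglia markers (6 of 14, -0.04), myelin genes (11 of 13, 0.02), oligodendrocyte precursor markers (4 of 10, -0.02) and interferon-stimulated genes (5 of 16, -0.07) had 0 members at an unadjusted p below 0.05. Of 11 plaque-associated microglia genes, 9 were lower. Ccl6, a chemokine, was higher at about 1 CPM (log2 fold change 0.48, 95% interval 0.04 to 0.92). It alone of the 11 had an unadjusted p below 0.05, against 3.06% of all genes on the higher side. The interferon-stimulated genes summed to 176 CPM in mouse B and to 105 to 127 CPM in A, C and D, against 128 to 155 CPM with vehicle. Without B, 15 of the 16 were lower with a median of -0.22 and 3 at an unadjusted p below 0.05, in plate column 12 all 16 were lower with a median of -0.36 and 1 at that threshold, and without D the median was 0.02. NRF2 target genes included 3 of 12 that were lower at an unadjusted p below 0.05, against 2.74% of all genes: Nqo1, a quinone reductase, at 3.07 to 3.63 CPM against 3.66 to 4.42 CPM and a log2 fold change of -0.31, Gclc, of glutathione synthesis, at -0.10, and Txnrd1, a thioredoxin reductase, at -0.11. That count was 0 without S3, 1 without S2 and 2 without any other mouse. None of 19 genes of the unfolded protein response did, Herpud1 having -0.08 (-0.18 to 0.02). Of 16 glucocorticoid receptor targets, 12 were lower with a median of -0.09. Mt1, a metallothionein, alone had an unadjusted p below 0.05, against 2.74% of all genes on the lower side. Its log2 fold change was -0.17. Transcripts of the mitochondrial genome were higher in 13 of 13 cases with a median of 0.12. Of these, mt-Co3 (0.20) and mt-Nd6 (0.26) reached the unadjusted threshold, against 3.06% of all genes on the higher side. Nuclear-encoded respiratory subunits (12 of 15 higher) had a median of 0.04. The mitochondrial sum was highest in mouse A, at 37664 CPM, and lowest in S1, at 29155 CPM, and without A the median was 0.07 with 0 genes at that threshold.

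The same drug comparison in APPtg/CETPtg mice used other animals throughout. The 23 genes named by the study were chosen on both genotypes, so their direction is not independent evidence here. In CETPtg mice 19 were higher and 4 lower, the direction they had in APPtg/CETPtg mice in all 23 cases, and 18 of the higher and 3 of the lower genes had an unadjusted p below 0.05. Tgm2 (0.18, 95% interval -0.02 to 0.38) and Herpud1 did not. The estimate was larger in CETPtg mice for 6 of the 23. For Herpud1 alone the test between genotypes gave an unadjusted p below 0.05 (0.00646, edgeR adjusted p = 0.703), its log2 fold change being -0.08 in CETPtg and -0.29 in APPtg/CETPtg mice. No gene of the 18609 differed between genotypes at an adjusted p of at most 0.05 (0%, smallest 0.127), and 1271 had an unadjusted p below 0.05 (6.83%).

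With those 23 genes set aside, 1058 had an unadjusted p below 0.05 in CETPtg mice, and 600 of them had the same sign in the other genotype (56.7%), as did 50.1% of all 18609 genes tested. An unadjusted p below 0.05 with the same sign in both genotypes was found for 98 genes, 9.26% of the 1058 in CETPtg mice and 5.93% of the 1654 in APPtg/CETPtg mice, and with opposite signs for 34. The 1058 and the 1654, which count both directions, were each out of 18586 genes tested. Of the 24 genes that led by p in CETPtg mice, Acta2, Myh11 and Rims4 were chosen by the study on both genotypes. Among the other 21, 11 shared their sign with APPtg/CETPtg mice. Of these 11, only Bhlhe41 also had an unadjusted p below 0.05 there, against 1654 of the 18586 genes in either direction. The endothelial list had a median of 0.22 in APPtg/CETPtg mice and the clock repressors -0.28, with all 13 lower. Some other lists did not keep their direction. Cortical neuron markers had a median of 0.24 in CETPtg and -0.08 in APPtg/CETPtg mice, olfactory bulb genes -0.69 and 0.86, and blood cell genes 0.36 and -0.39. Interferon-stimulated genes had -0.07 and 0.44, with all 16 higher in APPtg/CETPtg mice. The CETPtg median of the blood cell genes depended on mouse A, being -0.04 without it and -0.11 in plate column 12.

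Immediate early genes, which neurons switch on within minutes of activity, differed little in CETPtg mice and were lower in APPtg/CETPtg mice. In CETPtg mice 19 of 20 had a positive log2 fold change (median 0.09). Only Egr3 (0.42, 95% interval 0.07 to 0.77) had an unadjusted p below 0.05, against 3.06% of all genes on the higher side. In APPtg/CETPtg mice 19 of 20 were lower with a median of -0.71. The difference between genotypes had an unadjusted p below 0.05 for 13 of the 20, against 6.83% of all genes, none of them called after adjustment. Fos had 21.9, 17.4, 28.3 and 18.8 CPM in CETPtg mice given evacetrapib and 12.1, 25.4, 19.1 and 26.1 CPM with vehicle, so the groups overlapped, and a log2 fold change of 0.06 (-0.52 to 0.65) against -1.42 in APPtg/CETPtg mice. Npas4 had 0.09 (-0.32 to 0.50) against -1.44. Without vehicle mouse S1, which had the lowest sum of these genes (906 CPM against 1130.3 to 1401 CPM in the other 7), the CETPtg median was 0.03 and 13 of 20 were higher, and without evacetrapib mouse C they were 0.05 and 11 of 20.

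**Figure D5:**
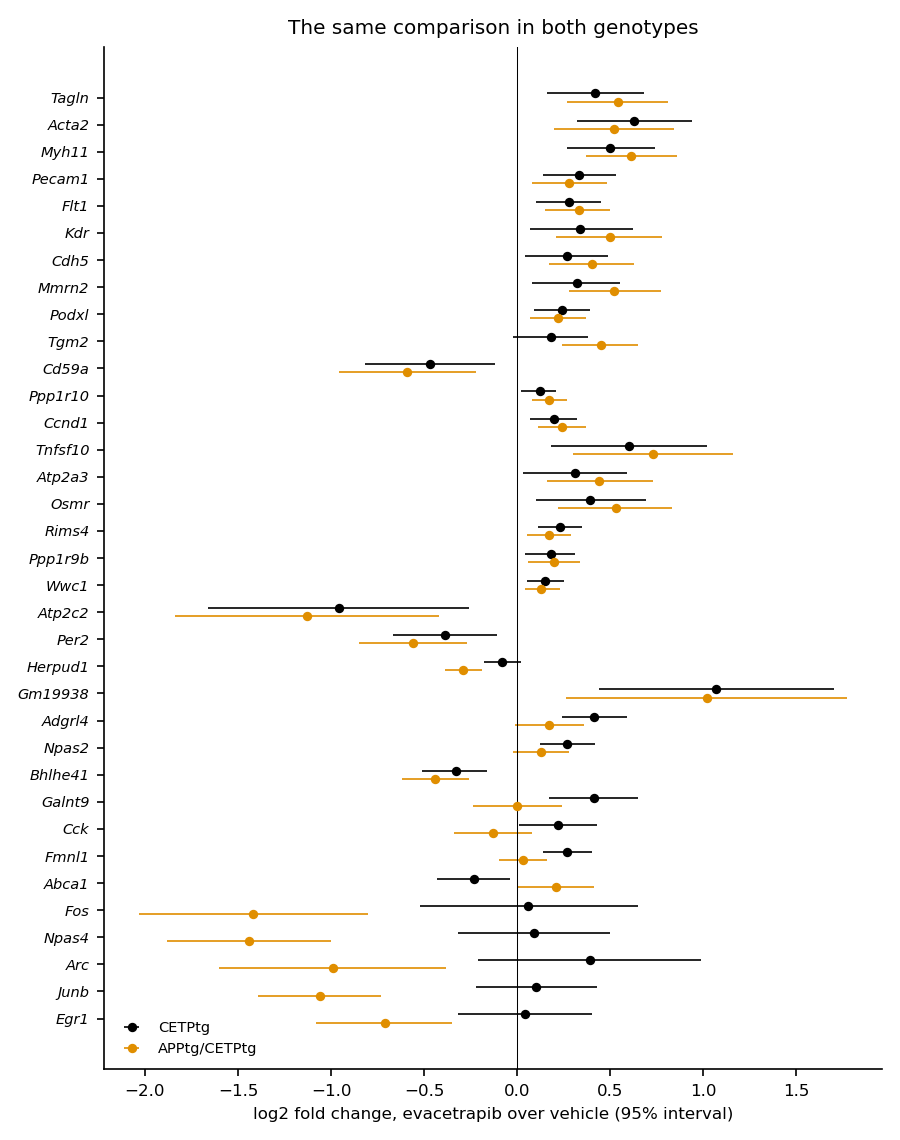
Log2 fold change of evacetrapib over vehicle (x axis) with its 95% interval in CETPtg mice (black) and APPtg/CETPtg mice (orange) for the 23 genes named by the study, then 12 further genes (y axis). The intervals of the study's genes lie on the same side for both genotypes apart from Tgm2 and Herpud1, whose CETPtg intervals include 0, whereas Fos, Npas4, Arc, Junb and Egr1 lie near or above 0 in CETPtg mice and below it in APPtg/CETPtg mice.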

How the data were processed

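The authors trimmed the read pairs of poly(A)-selected, directional libraries with Trimmomatic 0.39, aligned them to mm10 with STAR 2.7.8a and assigned them to genes with HTSeq-count. The authors deposited whole-number read counts per gene with no normalization. The annotation and the strand setting of the counting are not given in the sources used here, so overlapping and antisense genes may share reads. Of 55487 gene identifiers, 55227 are in GENCODE M21, which gave the GRCm38 coordinates, and 114 symbols have more than 1 identifier.

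Testing was limited to genes that reached 10 counts in 4 or more of the 16 mice. The 4 group means were fitted with edgeR 4.0.16 under R 4.3.3 (TMM, quasi-likelihood test, two-sided, Benjamini-Hochberg adjustment over 18609 genes), and the CETPtg contrast and its difference from the APPtg/CETPtg contrast were taken from it. All mice entered the fit so that they share 1 estimate of the spread. The 95% intervals come from that fit. The script was tested on simulated counts. Unadjusted p-values describe, and 1 in 20 falls below 0.05 without any difference. Mice were grouped by the labels, which make them separate animals. DESeq2 1.42.0, limma-voom (limma 3.58.1), other filters and library sizes, fits to the 8 mice alone, each mouse left out, the libraries of plate column 12 alone and a block by the mouse numbers of the table's header were the alternatives.

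Genes were named by rule: members of 37 gene lists, the 23 genes named by the study that were analysed here, the 12 higher and 12 lower genes with the smallest p, and genes called under DESeq2 on the CETPtg mice alone. The members and the lists were chosen with earlier results of these data known, so no list is independent of them, and lists are described by counts and medians without a test. A list's summed CPM adds all its listed genes. Some genes of the lists are not reported here by name.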

Additional observations from a re-analysis of the deposited data

Results flagged for a closer look

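In groups of 4, 1 mouse stood far from the other 3 in 22 of 246 groups examined (8.94%). A rate of about 1 in 20 would apply to independent values that were not chosen on these data. The groups came from named genes, many chosen on these counts, and from sums of lists that share genes, so the rates cannot be compared. Vehicle mouse S3 stood out most often: it was high for Avp (40.7 CPM, others 0.141 to 4.55), Atp2c2 (2.31 CPM, others 1.18 to 1.37), Cry1 (28.4 CPM, others 24.8 to 25.4) and Gm18588 (0.368 CPM, others 0.188 to 0.211), and low for Ppp1r9b (1007 CPM, others 1121 to 1138) and Snx3 (107 CPM, others 109). It was also high for the summed hypothalamic neuropeptides (163 CPM, others 27.7 to 44.9) and choroid plexus genes (456 CPM, others 227 to 241), and low for the sum of the study's neuronal and other genes (1359 CPM, others 1463 to 1466). Vehicle mouse S4 was high for the endothelial genes Podxl (45.0 CPM, others 36.0 to 36.6) and Kdr (13.0 CPM, others 10.5 to 10.7) and for the sum of oligodendrocyte precursor markers (530.0 CPM, others 478 to 486).

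Vehicle mouse S2 was high for Dgki (54.3 CPM, others 50.5 to 50.8) and for the summed pituitary hormones (20.6 CPM, others 1.34 to 4.57) and low for Etnppl (34.4 CPM, others 36.1 to 36.4). Vehicle mouse S1 was low for Fmnl1 (96.1 CPM, others 116 to 117) and for the olfactory bulb sum (107 CPM, others 197 to 209.8). Among the evacetrapib mice, A was high for Khdrbs3 (146 CPM, others 118 to 123) and low for Txnrd1 (52.6 CPM, others 58.5 to 59.5), and B was high for Mt1 (193 CPM, others 169 to 169.9) and low for Rgs5 (69.1 CPM, others 79.6 to 81.6) and for the cerebellar and hindbrain sum (148 CPM, others 166).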

How the results depend on the processing

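The count of called genes in the CETPtg contrast was 0 in edgeR, 20 with DESeq2 on the CETPtg mice alone and 9 without a filter on low counts, where Pmch and Hcrt entered with 20.0 and 7.89 CPM in S3 and at most 0.270 and 0.134 CPM in the other CETPtg mice. The count for the difference between genotypes was 2 with DESeq2, 29 without the filter, and between 0 and 1 with a mouse left out, the 1 being without S2. Of 1535 values of 86 named genes under the alternatives, 0 changed sign, 24 passed the adjusted threshold and 1511, like the values in edgeR, did not. Of the 84 genes among them with an unadjusted p below 0.05, 48 kept it with each of the 8 mice left out in turn, 36 lost it at least once and 18 had it in at most 4 of those fits, among them Cldn5, Eng, Robo4, Nr1d2, Abca1 and Cck. Of 451 list medians, 13 moved by more than the spread. Among the 26 endothelial genes, the number at an unadjusted p below 0.05 was 12, and 7 without A or S2, 8 without C or S3 and 6 without S1. Among the 13 clock repressors it was 7, and 4 without A or S3 and 3 without D or S2. The smooth muscle count of 3 became 7 without S4. The choroid plexus median of -0.10 became 0.46 without S3 and 0.09 without A. The labels give the treatments no replicate numbers in common, but the header line of the deposited table numbers the mice of each group. A replicate block by those numbers within each genotype, chosen after seeing the data, called 0 genes for the CETPtg contrast and 0 for the difference between genotypes, with 1093 and 1344 at an unadjusted p below 0.05. Deviations of same-numbered CETPtg mice from their group means correlated between -0.01 and 0.05 over 18609 genes, under 0.1 in every pair, so the numbers were not taken to pair the mice.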
